A study of Mus musculus with 80 samples.

Results

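Solute carriers (SLC proteins) are membrane transporters that move ions, sugars, amino acids, metals, nucleosides and organic acids across cell and organelle membranes, and are sorted by sequence into numbered subfamilies. In the kidney they carry out most of the recovery of filtered solutes: carriers of the apical membrane of the proximal tubule take up amino acids, peptides and phosphate, carriers of the basolateral membrane hand them to the blood, and cation-chloride cotransporters and anion exchangers of later segments set the salt and acid content of urine. The clones described here are those of 2 filter arrays that carry exactly 1 gene symbol beginning with Slc and a digit. The mitochondrial carriers (Slc25a), Slc4a1 and Slc6a13 were left out. Of 16896 clones, 121 met this rule, 59 on set A and 62 on set B, and they stood for 98 genes of 42 subfamilies. A further 18 clones with 1 Slc symbol were left out by the rule, and 10 clones whose spot was given several symbols, one of them an Slc gene, were not used. One symbol that met the rule, Slc9a3r1, names not a carrier but NHERF1, a scaffold protein that holds carriers in the apical membrane.

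Kidneys came from 40 C57BL/6 mice, an inbred laboratory strain, given unrestricted regular chow. There were 5 males and 5 females in each of 4 age groups: 704 to 743, 476 to 499, 169 to 194 and 17 to 44 days. Among the youngest were 5 mice of 17 to 21 days, about the age of weaning, and 5 of 33 to 44 days, taken as 1 group unless stated. Whole kidney RNA of each mouse was copied into radioactive cDNA and hybridised to both filters, so each mouse gave 1 value for every clone. Each value is a z score: how many standard deviations (SD) of its array a spot lay above or below the mean spot. Whether scores were made from log or linear signals is not given in the sources used here, so differences are in array SDs and cannot be read as folds. Spots of different clones differ in length and labelling, so scores of different clones are not compared as levels. The rank of a spot's brightness served only to mark dim spots and to choose 1 clone per subfamily. In whole tissue, fewer cells of a type and less RNA per cell cannot be told apart. No label says that mice were from separate litters.

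Array quality and tissue were checked first. None of the values was missing, and arrays correlated with the rest of their set at a mean of 0.891 to 0.965 (set A) or 0.916 to 0.976 (set B). At 3 median absolute deviations below the median, 8 mice had an outlying array. Of 16 listed proximal tubule markers, 4 had a clone (Lrp2, Miox, Cubn and Gatm), and scores of different probes cannot grade how much of a tissue was present. Many carriers known best for the kidney, such as those of sodium-glucose and sodium-phosphate uptake in the proximal tubule and the diuretic targets of the loop and distal tubule, had no clone with a symbol here: 9 of 56 listed proximal carriers, 3 of 9 of the loop and distal tubule and 5 of 10 of the collecting duct and vasa recta were measured. The dimmest 25% of spots held 36 of the 121 clones, and the brightest 25% held 25. Of the clones named below, the dim ones included Slc4a2 (spot 558), Slc37a3, Slc16a13 (spot 6124), Slc9b1, Slc38a3, Slc6a20a and Slc41a3. Also dim were all spots of Slc34a2 and Slc12a2, and spots 16257 (Slc1a3), 16358 (Slc35e1) and 11636 (Slc4a8).

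No solute carrier clone passed the test in any of the comparisons of age or sex. The highest age slopes, which did not pass, were those of Slc35f6 on both of its spots, at 0.110 and 0.100 array SD per year. The iron exporter Slc40a1 (0.0785 per year) and the sodium/myo-inositol cotransporter Slc5a11, 0.180 array SD higher at 169 to 194 than at 17 to 44 days, had among the smallest unadjusted p values for age. The organic anion transporter Slc22a7 had the smallest adjusted p of all members, for a score 0.207 array SD lower in adult males than in adult females. Over the 40 mice the SD of a clone's score had a median of 0.170 for the 121 clones and 0.174 for all clones. The round of arrays, 1 of 5 blocks inferred from serial numbers in the titles, took a median of 16.6% of a member's variance, age group 5.56% and sex 1.64%. Over all clones the same medians were 18.4%, 5.55% and 1.25%.

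For age, the slope per year was fitted with limma over all 40 mice, with sex as a second term. None of the 121 clones was called (0 of 121 at a Benjamini-Hochberg adjusted p under 0.05, against 0.0% of all clones). At an unadjusted p under 0.05 there were 12 of 121 clones (9.92%), against 5.2% of the 16896 clones. Of these, 9 had a positive and 3 a negative slope, where 3.04% and 2.16% of the whole table did. The slope was above 0 in 67 of 121 clones (55.4%), against 50.3% of all clones, and the members' median slope was 0.0036 array SD per year. Since members were tested as part of the whole table, the 12 clones are given as values and none as a change.

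Slc35f6 is a membrane protein of the family that holds the nucleotide sugar transporters of the Golgi, and 2 spots of set A carried it. On spot 4912 scores ran from 0.663 to 1.11 (median 0.952) in the 10 mice of 17 to 44 days, from 0.758 to 1.18 (median 1.06) at 169 to 194 days, from 1.01 to 1.34 (median 1.15) at 476 to 499 days and from 0.992 to 1.26 (median 1.12) at 704 to 743 days. The groups overlapped, but the lowest mice of the 2 older groups lay above the median of the youngest. The fitted slope was 0.110 ± 0.0296 (SE, n = 40) array SD per year, and it was positive in all 10 series formed by 1 sex within 1 round (limma adjusted p = 0.821, unadjusted p = 5.5e-04). Spot 6129 had medians of 1.38, 1.42, 1.496 and 1.55 in the same order of age, with scores from 1.15 to 1.502 in the youngest and from 1.38 to 1.72 in the oldest group. Its slope was 0.100 ± 0.0287 (SE, n = 40), again positive in 10 of 10 series (limma adjusted p = 0.821). Both spots show the gene in the same mice, so they are not separate samples of the trend. With the clones of each gene averaged before the fit, the slope of Slc35f6 was 0.105 with a limma adjusted p of 0.238.

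Against mice of 17 to 21 days alone, Slc35f6 was higher at 169 to 194 days by 0.205 ± 0.0776 on spot 4912 (0.135 without male 3 of 17 to 44 days) and by 0.205 ± 0.0782 on spot 6129 (SE, limma adjusted p = 1.00 for both). From 169 to 194 to 704 to 743 days the difference was 0.115 ± 0.0616 on spot 4912 and 0.137 ± 0.0625 on spot 6129. The proximal tubule markers had higher medians at older ages too: the mean score of their 5 clones in a mouse had a median of 0.796 in the youngest group (0.694 to 0.891) and of 0.855, 0.880 and 0.890 in the older ones, the last with a range of 0.776 to 0.997. All 5 of these clones had a positive slope, where 50.3% of all clones did, and none was called. Their part in the Slc35f6 values was not tested.

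**Figure D1:**
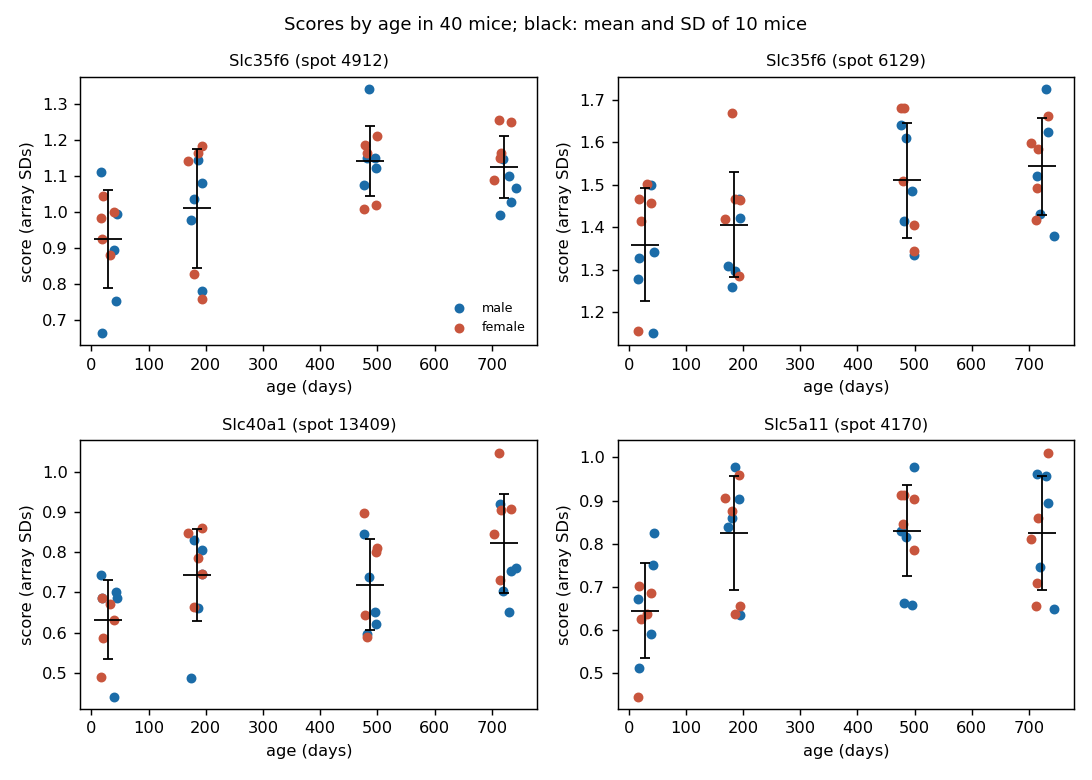
Scores (vertical axis, array SDs) of 4 clones against age in days (horizontal axis) in 40 mice, with males in blue, females in red, and black marks for the mean and SD of the 10 mice of each age group. The 2 spots of Slc35f6 had group medians from 0.952 to 1.15 and from 1.38 to 1.55, and Slc5a11 differed mainly between the youngest group and the rest.

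Clones were classed by numbered subfamily, apart from the scaffold Slc9a3r1. A class can thus hold carriers of other substrates, such as the urea transporter Slc14a1 under inorganic ions. Among the carriers of metals, 16 clones of 16 genes, 11 had a positive and 5 a negative slope, and 3 had an unadjusted p under 0.05, all positive. Of all clones, 50.3% had a slope above 0 and 5.2% had such a p, 3.04% with a positive slope. Differences between the classes were not tested. Slc40a1 encodes ferroportin, the exporter that releases iron from cells. Its scores ran from 0.441 to 0.743 (median 0.679) in the youngest group and from 0.651 to 1.05 (median 0.803) in the oldest, with medians of 0.765 and 0.695 at 169 to 194 and 476 to 499 days. The groups overlapped and the order of the medians was not a steady rise. The slope of 0.0785 ± 0.0261 (SE, n = 40) was positive in 8 of 10 series and did not pass (limma adjusted p = 0.937). Without the 8 mice with an outlying array it was 0.0625. Slc48a1, a heme transporter of endolysosomes, had a slope of 0.0618 ± 0.0258. The remaining one of the 3 was Slc30a2, a zinc carrier of secretory vesicles that was named after its values were seen, with 0.0815 ± 0.0375. Erythroid markers, 19 clones of only 5 genes read in the same mice, had a negative slope in 17 clones, where 50.3% of all clones had a slope above 0. Their mean score had medians of 0.163, 0.212, 0.244 and 0.121 in the age groups from youngest to oldest, and their part was not tested.

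Amino acid and peptide carriers made up 30 clones of 21 genes, of which 13 had a positive and 17 a negative slope, and 4 an unadjusted p under 0.05. Over all clones 50.3% of slopes were above 0 and 5.2% had such a p. Slc6a6, the taurine transporter, had a slope of 0.0943 ± 0.0406 on spot 5160 and of -0.0200 ± 0.0416 on spot 14190. Slc7a8, the light chain of a basolateral neutral amino acid exchanger of the proximal tubule, had a slope of 0.0694 ± 0.0326. In the other direction, Slc66a2, a PQ-loop membrane protein, had -0.0824 ± 0.0326, with the sign shared by 9 of 10 series. Slc6a8, the creatine transporter, had -0.112 ± 0.0494 on spot 548, or -0.0585 without the 8 mice with an outlying array, and 0.0421 ± 0.0277 on spot 11312. None of these passed (limma adjusted p = 0.937 for Slc6a8 on both spots). For the taurine and creatine carriers the 2 spots of the gene thus had opposite signs.

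Counts in the remaining classes stand beside 50.3% of slopes above 0 and 5.2% at an unadjusted p under 0.05 over all clones. Carriers of nucleosides and nucleotide sugars (18 clones) had 8 positive and 10 negative slopes, and the 2 with an unadjusted p under 0.05 were both Slc35f6. Organic anion, cation and carboxylate carriers (14 clones) had 5 positive and 9 negative slopes. Those with an unadjusted p under 0.05 were Slc37a3 and spot 6124 of Slc16a13. Slc37a3, a member of the sugar-phosphate exchanger family, had -0.145 ± 0.0705. Without male 2 of 17 to 44 days it was -0.0772, and without the 8 mice with an outlying array -0.223. In the same class Slc16a13, of the monocarboxylate transporter family, had 0.0998 ± 0.0418 on spot 6124 and 0.0878 ± 0.0455 on spot 8132. Inorganic ion and phosphate carriers (21 clones) had 15 positive and 6 negative slopes and none under an unadjusted p of 0.05. The lipid, choline and vitamin carriers (10 clones) had 8 positive and 2 negative slopes, also with none. Of the 11 clones of sugar and sodium-coupled carriers, 6 had a positive slope and 1 an unadjusted p under 0.05, Slc5a11.

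**Figure D2:**
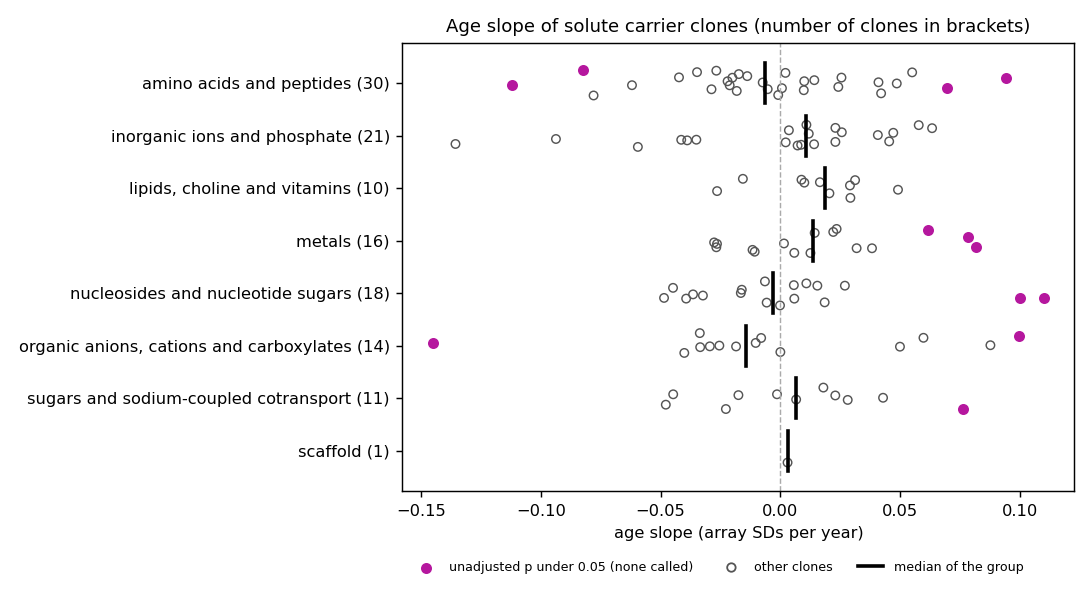
Age slope in array SDs per year (horizontal axis) of each of the 121 clones, grouped by class of subfamily, with the number of clones in brackets and a black line at the group's median. Filled points had an unadjusted p under 0.05 (12 clones), and the 2 highest slopes, 0.110 and 0.100, are the 2 spots of Slc35f6.

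Between the youngest mice and young adults (169 to 194 minus 17 to 44 days), which spans weaning and growth, 0 of 121 clones were called against 0.0% of all clones. At an unadjusted p under 0.05 there were 10 of 121 clones (8.26%), against 5.08% of all clones. Of these, 7 were higher and 3 lower in adults, where 2.44% and 2.65% of all clones were. Estimates were above 0 in 63 members (52.1%), against 51.0% of all clones. Slc5a11, which takes up myo-inositol, an osmolyte of the kidney medulla, had the smallest p among members. Its scores ran from 0.445 to 0.824 (median 0.655) in the youngest group and from 0.634 to 0.978 (median 0.868) at 169 to 194 days. The 2 groups overlapped between 0.634 and 0.824. Adults exceeded young mice by 0.180 ± 0.0612 (SE, n = 10 in each group), with the same sign in 10 of 10 pairings of 1 sex and round (limma adjusted p = 0.933). The difference was 0.133 without mice of 17 to 21 days, and 0.158 to 0.206 with each mouse left out in turn. Scores at the later ages were close to those of young adults, with medians of 0.837 and 0.835, and the old minus adult difference was 0.00085 ± 0.0612.

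Other carriers with positive differences over this interval were Slc29a2 and Slc16a3. Slc29a2, an equilibrative nucleoside transporter, averaged -0.418 ± 0.134 (SD, n = 10) in the youngest and -0.191 ± 0.153 in the young adult group, a difference of 0.226 ± 0.0873 (SE). Slc16a3, a monocarboxylate transporter that exports lactate, averaged -0.0772 ± 0.133 and 0.112 ± 0.156, a difference of 0.190 ± 0.0764 (SE). Neither passed (limma adjusted p = 0.933 for both).

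Lower scores in adults were seen for Slc6a8 on spot 548, Slc4a2 on spot 558 and Slc39a1, with none passing. Spot 548 of Slc6a8 ran from -0.632 to 0.416 (median -0.342) in the youngest and from -1.13 to -0.340 (median -0.531) in young adults, a difference of -0.244 ± 0.0980 (SE), or -0.162 without male 1 of 17 to 44 days. The other spot of the gene differed by -0.0259 ± 0.0598. Slc39a1, a zinc uptake carrier, differed by -0.130 ± 0.0635, by -0.0662 with array weights, which count a noisier array for less, and by -0.0529 without the 8 mice with an outlying array. For Slc4a2, the widely expressed anion exchanger AE2, spot 558 gave a difference of -0.289 ± 0.138, but 1 young male of 17 days stood at 0.977 while the other males of its group lay between -1.10 and -0.571. Without that mouse the difference was -0.105, without all mice of 17 to 21 days -0.128, and without the 8 mice with an outlying array -0.447. The second Slc4a2 spot differed by -0.0503 ± 0.0553.

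From young adult to old mice (704 to 743 minus 169 to 194 days), 0 of 121 clones were called, against 0.0% of all clones, and 1 member (0.826%) had an unadjusted p under 0.05, against 2.36% of all clones. That member was spot 6129 of Slc35f6, higher in old mice, as were 1.09% of all clones at this p. Of the 121 estimates, 58 were above 0 (47.9%), against 50.6% of all clones. The positive values of next smallest p were those of Slc6a6 and Slc16a13. Slc6a6 was at 0.156 ± 0.0835 on spot 5160, or 0.0648 without the 8 mice with an outlying array, and at 0.0144 ± 0.0833 on spot 14190. Slc16a13 was at 0.170 on spot 6124, which was 0.0913 without female 5 of 704 to 743 days and -0.0323 without the 8 mice. Slc12a7, a potassium-chloride cotransporter, was at -0.216 ± 0.124 on spot 518, or -0.128 without female 3 of 704 to 743 days, and at 0.0410 ± 0.0870 on spot 9628. Slc29a2, higher in young adults than in the youngest mice, differed by -0.158 between old and young adult mice. It was -0.102 without female 2 and -0.0962 without male 3 of 704 to 743 days. Slc30a3 differed by -0.106, by -0.0422 with array weights and by -0.0432 without the mice with an outlying array. None passed (limma adjusted p = 1.00 for each).

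The carriers with a known place along the nephron were few. Of the 9 proximal genes, 1 had an unadjusted p under 0.05 for the slope (Slc7a8), against 5.2% of all clones. Their slopes were positive in 4 and negative in 5, where 50.3% of all clones had a slope above 0. For 169 to 194 minus 17 to 44 days 2 of 9 had an unadjusted p under 0.05, against 5.08% of all clones. These were Slc7a8 with 0.141 ± 0.0663 and Slc3a2, the heavy chain with which it pairs, with 0.135 ± 0.0601. Scores of Slc3a2 ran from 1.80 to 2.17 (median 1.94) in the youngest and from 1.87 to 2.24 (median 2.11) in the young adult group, so the groups overlapped over most of their range. Slc22a5, the carnitine transporter, differed by 0.101 ± 0.0708, Slc39a8, a zinc and manganese carrier, by 0.0554 ± 0.0651, and Slc15a2, an apical peptide transporter, by 0.0308 ± 0.0641. Slc38a3, a glutamine transporter, Slc6a20a, which takes up imino acids, and Slc7a7, the light chain of a basolateral exporter of cationic amino acids, were at -0.0320 ± 0.0637, -0.0479 ± 0.135 and -0.0954 ± 0.150. No member of the list was called.

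In the loop and distal tubule, Slc8a1, a sodium-calcium exchanger, differed by 0.142 ± 0.0750 between young adults and the youngest mice and by -0.108 ± 0.0750 between old and young adults. Slc41a3, a magnesium carrier, differed by -0.0750 ± 0.0764 and -0.0109 ± 0.0764. In the collecting duct and vasa recta, the urea transporter Slc14a1 differed by 0.0233 ± 0.0724 and -0.00469 ± 0.0724. Slc4a8, a sodium-driven bicarbonate exchanger, had slopes of 0.0578 ± 0.0325 on spot 4635 and 0.00721 ± 0.0386 on spot 11636. The 4 spots of Slc12a2, the sodium-potassium-chloride cotransporter of basolateral membranes, had slopes from -0.0595 to 0.0257, with both signs.

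The youngest group was also split by age. From 17 to 21 to 33 to 44 days, 0 of 121 clones were called, against 0.0% of all clones, and 7 (5.79%) had an unadjusted p under 0.05, against 4.43% of all clones. Of these, 4 were higher and 3 lower at 33 to 44 days, where 2.6% and 1.83% of all clones were. Slc44a1, a choline transporter-like protein of the plasma membrane, had the smallest p. On spot 15459 the 5 mice of 17 to 21 days ran from 0.0345 to 0.306 (median 0.198) and the 5 of 33 to 44 days from -0.169 to 0.147 (median -0.101). The difference was -0.242 ± 0.0734 (SE), or -0.161 without the mice with an outlying array, and the 2 classes overlapped (limma adjusted p = 0.997). The second spot differed by -0.103 ± 0.0838. Positive differences were 0.248 ± 0.0917 for Slc1a3, a glutamate and aspartate transporter, on spot 11683 (0.146 without the mice with an outlying array), with 0.0350 ± 0.103 on its other spot, 0.220 ± 0.105 for the vesicular glutamate transporter Slc17a6, and 0.193 ± 0.0955 for Slc22a7. Slc13a4, a sulfate transporter, differed by -0.194 ± 0.0866, and Slc9b1, a sodium-proton exchanger family member, by -0.298 ± 0.140. The 2 classes were spread unevenly over the rounds of arrays. Both young mice of round 3 were of 17 to 21 days, and both of round 5 of 33 to 44 days. With the round as a block, Slc17a6 was at 0.163 and Slc9b1 at -0.234. Slc1a3 on spot 11683 was at 0.295 and Slc22a7 at 0.198 in that fit. Of the proximal carriers 8 of 9 estimates were above 0 (median 0.112), where 65 of the 121 members and 47.6% of all clones were. Erythroid marker clones, of only 5 genes, were lower at 33 to 44 days in 15 of 19 cases, with 5 clones at an unadjusted p under 0.05. Of all clones 47.6% had an estimate above 0 and 4.43% had such a p. The part of the erythroid markers in the carrier values was not tested.

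Young adults were set against the mice of 17 to 21 days as well, with 0 of 121 clones called against 0.0% of all clones. At an unadjusted p under 0.05 there were 7 members, against 2.56% of all clones. Of these, 5 were higher and 2 lower in adults, where 1.54% and 1.02% of all clones were. They included Slc5a11 with 0.196 ± 0.0718, both spots of Slc35f6, Slc6a8 on spot 548 with -0.328 ± 0.119 and Slc4a2 on spot 558 with -0.457 ± 0.167, which was -0.0751 without the young male named above. Slc35e1, an orphan of the nucleotide sugar transporter family, was at -0.196 ± 0.102 on spot 6887 and -0.00483 ± 0.158 on spot 16358.

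For sex, 0 of 121 clones were called in the mean over 4 age groups, where 18 clones of all (0.107%) were. Members at an unadjusted p under 0.05 numbered 4 (3.31%), against 4.48% of all clones. Of these, 2 were higher and 2 lower in males, where 1.76% and 2.72% of all clones were, and 60 of 121 estimates were above 0, against 49.2%. Slc9a3r1, the apical scaffold NHERF1, had the smallest p. In males its scores ran from -0.661 to -0.0527 (median -0.288, n = 20) and in females from -0.736 to -0.228 (median -0.383, n = 20). The ranges overlapped over most of their length. The difference was 0.139 ± 0.0481 (SE), higher in the male of 16 of 20 couples of 1 age and round (limma adjusted p = 0.982). It was 0.146, 0.211, 0.147 and 0.0508 in the 4 age groups from youngest to oldest. Slc30a3, a vesicular zinc carrier known from neurons, differed by 0.118 ± 0.0458 (15 of 20 couples) and Slc48a1 by 0.0778 (14 of 20), or 0.0464 without mice of 17 to 21 days. Slc22a7 differed by -0.133 ± 0.0473 (13 of 20), Slc2a8, a glucose transporter of intracellular membranes, by -0.123 ± 0.0560 on spot 626 (14 of 20), and Slc26a10, of the anion exchanger family, by -0.102 (15 of 20), or -0.0394 without the mice with an outlying array.

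In mice of 169 days or older, 0 of 121 clones were called, against 15 of the whole table (0.0888%). Of the members 8 (6.61%) had an unadjusted p under 0.05, against 4.45% of all clones. Of these, 4 were higher and 4 lower in males, where 1.79% and 2.66% of all clones were, and 56 of 121 estimates were above 0, against 49.1%. Slc22a7 is an organic anion transporter of the proximal tubule, a group of carriers that in mice often differs between the sexes. Its scores ran from -0.705 to -0.274 (median -0.537) in 15 adult males and from -0.566 to 0.0408 (median -0.325) in 15 adult females. Male scores lay lower as a group, and the ranges overlapped between -0.566 and -0.274. The means were -0.530 ± 0.118 and -0.323 ± 0.154 (SD), a difference of -0.207 ± 0.0546 (SE), with the male lower in 12 of 15 couples and in the mean of every one of the 5 rounds (limma adjusted p = 0.312). By age group it was -0.185, -0.232 and -0.203 from 169 to 194 days on, and 0.0874 at 17 to 44 days. The test of a sex difference that varies with age did not call the clone. With array weights the adult difference was -0.232 and the limma adjusted p 0.0531, the lowest over the alternatives. The highest limma adjusted p was 0.638, without female 4 of 169 to 194 days. With each mouse left out in turn the difference ran from -0.226 to -0.178.

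The adrenal marker Hsd3b1 was lower in males too, and was called over all ages on 1 of its 2 spots (-0.280 ± 0.0535, limma adjusted p = 0.00788). The mean score of the 6 adrenal clones, of 5 genes, had a median of 0.463 (0.259 to 0.615) in 20 males and 0.534 (0.286 to 0.682) in 20 females. Of the 6, 4 were lower in males, and the part of adrenal tissue in the sex differences of carriers was not tested. Proximal markers had medians of 0.843 in males and 0.867 in females.

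The other adult sex differences of small p did not pass either (limma adjusted p = 0.996 for each). Slc15a2, the apical peptide transporter, averaged 0.400 ± 0.106 in adult males and 0.520 ± 0.148 in adult females (SD, n = 15 each), a difference of -0.120 ± 0.0523 (SE). Slc34a2, a sodium-phosphate cotransporter, differed by -0.138 ± 0.0568 on spot 9684 and 0.0708 ± 0.119 on spot 3157, and Slc2a8 by -0.143 ± 0.0646 on spot 626 and -0.0846 ± 0.0802 on spot 1441. Slc30a3 averaged 0.101 ± 0.144 in males and -0.0357 ± 0.164 in females, a difference of 0.137 ± 0.0528 (SE). Slc9a3r1 differed by 0.136 ± 0.0555, and Slc48a1 by 0.105 ± 0.0451 with males at 1.25 ± 0.119 and females at 1.15 ± 0.0914 (SD). The 2 spots of Slc16a13 were at 0.179 ± 0.0795 and -0.0527 ± 0.0742. By class of subfamily, estimates above 0 numbered 12 of 30 for amino acids and peptides, 8 of 21 for inorganic ions and phosphate, 5 of 10 for lipids, choline and vitamins, and 9 of 16 for metals. They numbered 6 of 18 for nucleosides and nucleotide sugars, 11 of 14 for organic anions, cations and carboxylates and 4 of 11 for sugar and sodium-coupled carriers. Of all clones 49.1% were above 0, and differences between the classes were not tested.

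**Figure D3:**
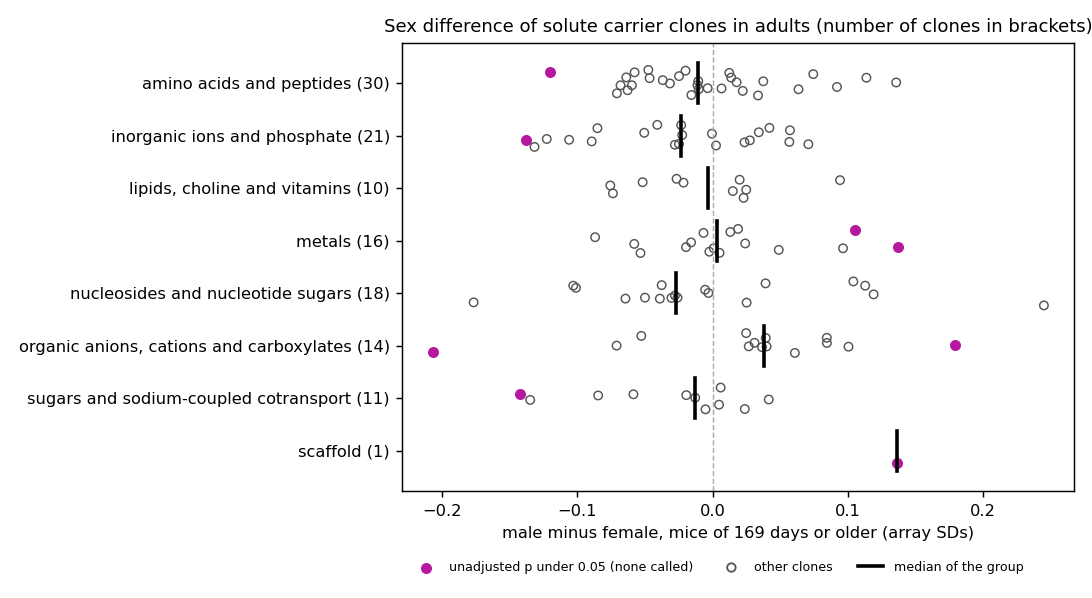
Male minus female difference in array SDs (horizontal axis) in mice of 169 days or older for each of the 121 clones, grouped by class of subfamily, with a black line at the group's median. Filled points had an unadjusted p under 0.05 (8 clones), and none was called. The value for Slc22a7 is -0.207.

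Whether the sex difference varied over the 4 age groups was tested with an F test per clone. None of the 121 members was called, against 0.0% of all clones, and 1 (0.826%) had an unadjusted p under 0.05, against 3.23% of all clones. That member was Slc44a2, a choline transporter-like protein, with F = 4.05 (limma adjusted p = 1.00). At 476 to 499 days its scores ran from 1.39 to 1.75 in 5 males and from 0.921 to 1.54 in 5 females, a difference of 0.272 ± 0.119 (SE). At 704 to 743 days they ran from 1.00 to 1.51 in males and from 1.39 to 1.88 in females, a difference of -0.293 ± 0.119. The sexes overlapped in both groups. Without the 8 mice with an outlying array F was 1.67. The next smallest p values belonged to Slc12a2 on spot 86 and the bile acid and steroid sulfate carrier Slc10a6, with F of 2.83 and 2.79. The other Slc12a2 spots had F of 0.64, 0.639 and 0.255, and with the clones averaged F was 0.462. For Slc10a6 F was 1.58 with array weights and 1.07 without the mice with an outlying array.

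**Figure D4:**
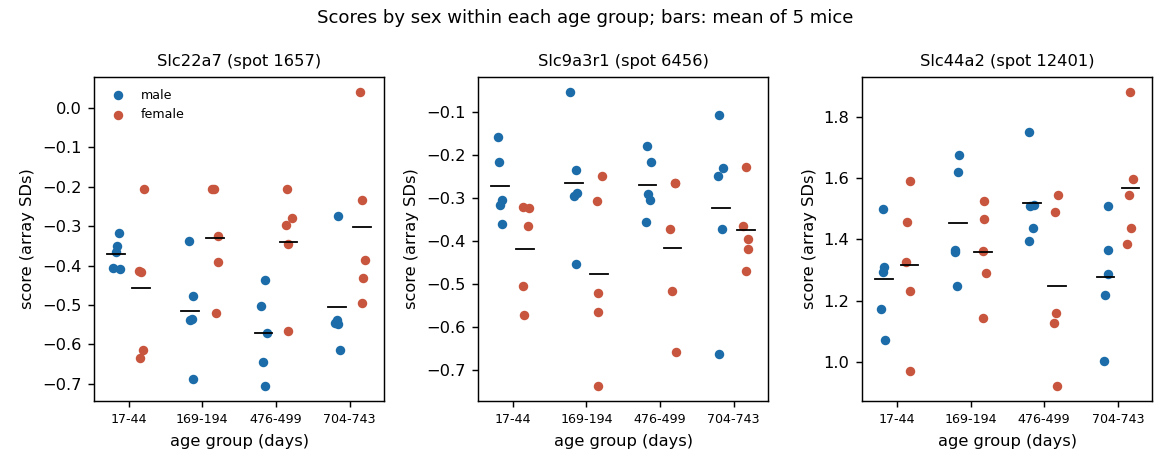
Scores (vertical axis, array SDs) of Slc22a7, Slc9a3r1 and Slc44a2 in males (blue) and females (red) of each age group in days (horizontal axis), with a black bar at the mean of the 5 mice. Male means of Slc22a7 lay below female means in the 3 older age groups, from -0.571 to -0.504 against -0.339 to -0.301, and the reverse held at 17 to 44 days.

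Of the 98 genes, 19 had more than 1 clone, which gave a second reading of the same gene in the same mice. All clones of a gene had slopes of the same sign in 9 of 19 genes, among them Slc35f6 and Slc16a13. For the comparison of young adults with the youngest mice the count was 11 of 19, for old against young adult mice 10 of 19, and for both sex comparisons 6 of 19. Signs at random would match about as often as not in a gene with a pair of clones. These counts therefore do not show that clones of a gene agreed beyond that. Spots of Slc6a8, Slc6a6 and Slc4a2 gave slopes on both sides of 0.

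**Figure D5:**
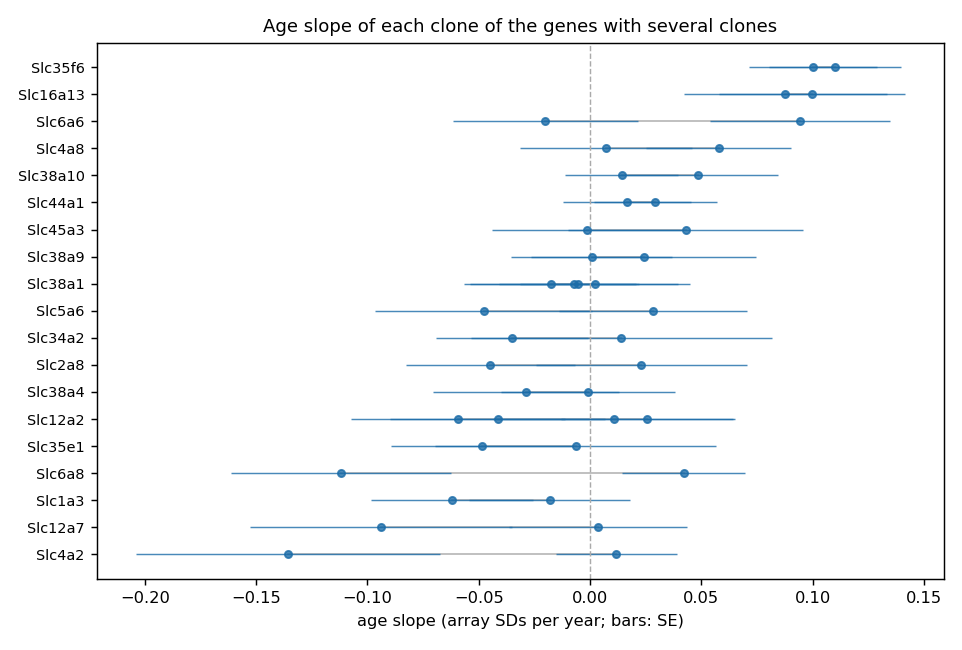
Age slope in array SDs per year (horizontal axis) of every clone of the 19 genes with several clones, with bars for the standard error and a grey line joining the clones of a gene. The 2 Slc35f6 spots sit at 0.100 and 0.110, while the spots of Slc6a8 sit at -0.112 and 0.0421.

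The 14 subfamilies with 3 or more measured genes were also described by their brightest clone. The slope was 0.00981 ± 0.0519 for Slc7a6, a cationic and neutral amino acid exchanger, and 0.00068 ± 0.0361 for Slc38a9, a lysosomal arginine carrier and sensor (spot 8985). It was 0.0230 ± 0.0267 for Slc12a4, a potassium-chloride cotransporter, -0.0255 ± 0.0300 for the lactate carrier Slc16a1, and 0.00153 ± 0.0277 for Slc39a10, a zinc importer. Slc22a17, a lipocalin receptor, Slc30a7, a Golgi zinc carrier, and Slc2a4, the insulin-regulated glucose transporter, had slopes of -0.0185 ± 0.0302, -0.0116 ± 0.0429 and -0.0175 ± 0.0314. For Slc1a3 (spot 11683), Slc44a1 (spot 15561) and Slc9a3r1 it was -0.0182 ± 0.0363, 0.0165 ± 0.0286 and 0.00302 ± 0.0314. Each of these 11 slopes was smaller than its standard error. The other slopes exceeded theirs and did not pass: -0.0486 ± 0.0408 for Slc35e1 on spot 6887, 0.0943 ± 0.0406 for Slc6a6 on spot 5160 and 0.0578 ± 0.0325 for Slc4a8 on spot 4635.

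Proteins that regulate or escort these carriers were measured with 22 clones of 15 genes, and none was called. Emb, the escort of monocarboxylate carriers, was higher in young adults than in the youngest mice by 0.183 ± 0.0702, and Wnk1, a kinase that controls cation-chloride cotransporters, differed by -0.167 ± 0.0721 on 1 spot. Wnk4, a kinase of the same pathway, had a slope of 0.114 ± 0.0471 on 1 spot and of -0.00350 ± 0.0278 on the other. For old against young adult mice Bsg, another escort of monocarboxylate carriers, was at -0.159 ± 0.0830. In adults, Wnk1 differed between males and females by 0.324 ± 0.161 on its second spot, and Clcn5, a chloride-proton exchanger of proximal endosomes, by -0.117 ± 0.0589. Only 1 Wnk1 spot is given for each comparison, so whether its spots agreed cannot be read here.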

How the data were processed

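Kidney RNA of 40 mice was measured on 80 nylon filters of cDNA clones, 8448 clones in each of 2 sets. The values deposited by the authors are z scores (score: mean 0 and SD 1 in every array, as the values show). How images and background were handled, and whether signals were log or linear, was not given in the sources used here. Of the deposited columns, 0 were left out.

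Array interquartile ranges differed from their set's median by as much as 7.63% (set A) and 4.22% (set B), and array medians by 0.05 and 0.07 SD. A set was to be kept as deposited only if neither departed by over 5%, so each set was quantile normalized. Each set had its own fit in limma 3.58.1 (lmFit and eBayes, R 4.3.3), with Benjamini-Hochberg adjustment over 16896 clones. The slope used years of 365 days with sex as a term. The other comparisons used the 8 sex and age means, or 5 age classes plus sex where the youngest group was split. Only the male minus female fit over all ages was tested on simulated data, with planted sex differences. The age fits and the F test were not, and the outcome of that simulation is not given here. Precision is limited by the number of arrays. The title and description of 1 male aged 714 days disagreed on the animal, which was placed by its sex and age fields.

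Symbols came from the platform table (1 symbol for 9663 clones, several for 436, none for 6797), and all 98 member gene identifiers matched RefSeq (GRCm38.p6). Members and lists were chosen with earlier results of these data known. Named were, per comparison, the 3 clones of smallest p in each direction with all clones of their genes, the brightest clone of each subfamily with 3 or more genes, members of the nephron lists, and regulators or escorts of smallest p. Alternatives were the scores as deposited, rounds as a block, no dim clones, array weights, averaged clones, and leaving out outlying mice, mice of 17 to 21 days or each mouse in turn. No sequences of the clones were used here.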

Additional observations from a re-analysis of the deposited data

Results flagged for a closer look

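Within groups of 5 mice of 1 sex and age, 5 values of the clones described in most detail stood apart from the rest, out of 104 groups checked with Dixon's ratio at a critical value of 0.71. Chance alone marks about 1 in 20 groups of this size. For Slc22a7 (spot 1657), male 4 of 704 to 743 days was at -0.274 while the other males of its group lay between -0.615 and -0.537. For Slc35f6 on spot 4912, male 4 of 476 to 499 days was at 1.34, with the others between 1.07 and 1.15. On spot 6129 of Slc35f6, female 1 of 17 to 44 days was at 1.16, with the others between 1.42 and 1.502. For Slc40a1 (spot 13409), male 5 of 17 to 44 days was at 0.441, with the others between 0.687 and 0.743, and this mouse was 1 of the 8 with an outlying array. For Slc4a2 (spot 558), male 4 of 17 to 44 days was at 0.977, with the others between -1.10 and -0.571. The second Slc35f6 spot was not marked in the same mice, and neither was the second Slc4a2 spot.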

How the results depend on the processing

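No member was called under any alternative, each mouse left out in turn included, and in all 8 comparisons the count of called members stayed at 0. The lowest adjusted p of a member in any limma fit was 0.0531, for Slc22a7 in adult males against females with array weights. The count of members at an unadjusted p under 0.05 moved more: for the slope from 12 to 6 without the mice with an outlying array, to 6 without mice of 17 to 21 days and to 15 with the replicate block. For adult sex it moved from 8 to 16 without outlying mice and 14 with array weights, and for sex over all ages from 4 to 10 with array weights and 8 with the replicate block. For old against young adult mice 1 became 5 without outlying mice, 3 with the replicate block, 2 with array weights and 0 with the deposited scores. For the sex difference by age 1 became 4 with array weights, and within the youngest group 7 became 3 without outlying mice or with the deposited scores. Leaving out each mouse in turn gave 9 to 15 for the slope, 6 to 12 for young adult against youngest mice, 0 to 5 for old against young adult mice, 3 to 9 for sex over all ages, 6 to 11 for adult sex and 1 to 4 for the sex difference by age. The same ranges were 3 to 9 within the youngest group and 5 to 8 for young adults against mice of 17 to 21 days. The shares of all clones under these alternatives are not given here. The moves in these counts therefore cannot be read as particular to the carriers. One direction reversed: Slc16a13 on spot 6124, old minus young adult, was 0.170 with all mice and -0.0323 without those with an outlying array; the cause was not tested. The slope of Slc6a8 on spot 548 was -0.0585 without those mice, and the difference of Slc44a1 on spot 15459 within the youngest group was -0.161. The slopes of Slc35f6 ran from 0.0979 to 0.111 on spot 4912 and from 0.0872 to 0.105 on spot 6129 over the alternatives other than leaving out 1 mouse. With each mouse left out in turn they ran from 0.0976 to 0.119 on spot 4912 and from 0.0890 to 0.109 on spot 6129. With the round of arrays as a replicate block, the F of Slc44a2 for a sex difference varying with age was 6.53 against 4.05. Mice of the same round correlated in their deviations with medians of 0.112 (set A) and 0.191 (set B), against -0.0417 and -0.0504 for mice of other rounds. Of 40 mice, 23 and 26 correlated best with their own round, a hint from the data and not from the design. The lowest pairs of the same round were at -0.184 and -0.309, and since not every pair correlated positively the round stayed out of the main design. Among 140 such pairs in each set, some negative values could arise even where rounds differed. That rule therefore cannot show that the rounds had no effect, and fits with the round as a block are given as an alternative.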
